A study of Mus musculus with 8 samples.

Results

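The genes described here encode 10 integrin subunits, chosen by name: the α subunits *Itgae*, *Itga4*, *Itga6*, *Itgal* and *Itgav* and the β subunits *Itgb1*, *Itgb2*, *Itgb3*, *Itgb7* and *Itgb8*. All 10 were in the deposited table of 20172 genes, and all 10 passed the filter on low values. RNA was sequenced from TNFR2+ and TNFR2- regulatory T cells (Tregs), with 4 libraries of each population (replicates 1 to 4). Every library came from spleens of *Foxp3* YFP-cre mice, described in the series text as female, in which the *Foxp3* locus drives a yellow fluorescent Cre protein. Cells positive for this reporter were sorted by surface TNFR2, the tumor necrosis factor receptor encoded by *Tnfrsf1b*. The genotype is therefore common to both populations, which differ only in the gate. No treatment is labelled, the labels give no age, and they do not say whether a library is 1 mouse or a pool, so p-values measure the spread between these libraries, which may be technical.

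Integrins are cell surface receptors made of 1 α and 1 β subunit, which hold cells to matrix proteins and to counter-receptors on other cells. Their affinity is set from inside the cell, where talin and kindlin bind the short β tail, and the bound receptor signals back through the same tail. In T cells αLβ2 (LFA-1) binds ICAMs, α4β1 binds VCAM-1, α4β7 binds the gut addressin MAdCAM-1, αEβ7 binds E-cadherin and α6β1 binds laminins. The αv integrins bind RGD sequences, among them the one in latent TGF-β, and αvβ8 on Tregs is known for releasing active TGF-β from that complex.

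The β tails differ in the sites that talin and kindlin use, called NPxY motifs after their amino acids, and the subunits compared here differ in these sites as well as in their RNA. The sequences below are the last 50 codons before the stop codon, 5′ to 3′, from the GENCODE transcripts on GRCm38, with the codons of each NPxY or NPxF motif in capitals.
Itgb1: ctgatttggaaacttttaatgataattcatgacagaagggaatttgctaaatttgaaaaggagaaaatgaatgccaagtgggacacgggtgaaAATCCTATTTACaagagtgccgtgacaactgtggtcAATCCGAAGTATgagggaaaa
Itgb2: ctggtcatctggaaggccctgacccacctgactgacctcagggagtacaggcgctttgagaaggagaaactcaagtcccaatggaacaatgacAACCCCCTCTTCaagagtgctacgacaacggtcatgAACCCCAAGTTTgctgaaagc
Itgb7: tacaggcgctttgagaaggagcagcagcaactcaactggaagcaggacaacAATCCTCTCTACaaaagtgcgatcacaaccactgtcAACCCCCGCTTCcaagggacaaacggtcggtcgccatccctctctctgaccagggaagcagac
Itgb3: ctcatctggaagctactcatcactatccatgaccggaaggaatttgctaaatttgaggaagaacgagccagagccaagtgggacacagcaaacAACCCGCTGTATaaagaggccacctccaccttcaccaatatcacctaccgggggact
Itgb8: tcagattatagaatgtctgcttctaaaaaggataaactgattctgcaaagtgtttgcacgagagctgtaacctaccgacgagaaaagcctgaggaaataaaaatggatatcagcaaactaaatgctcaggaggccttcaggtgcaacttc
*Itgb1*, *Itgb2* and *Itgb7* each held 2 such motifs, *Itgb3* held 1 of this spelling and *Itgb8* held 0. The first motif of *Itgb1*, *Itgb2* and *Itgb3* ended 15 codons before the stop codon, and that of *Itgb7* ended 29 codons before it. The α subunits carry instead a GFFKR motif just inside the membrane, where the α and β tails are held together at rest. All 5 α subunits had it, and it is shown in capitals for the 3 whose RNA differed between the populations, with the flanking codons.
Itgav: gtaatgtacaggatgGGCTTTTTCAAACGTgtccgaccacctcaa
Itgal: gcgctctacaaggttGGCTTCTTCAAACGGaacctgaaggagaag
Itga6: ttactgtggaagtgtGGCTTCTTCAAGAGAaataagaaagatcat

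Estimated depth was 9615000 to 12112000 reads in TNFR2+ libraries and 9100000 to 10982000 reads in TNFR2- libraries. The normalized counts summed to between 9576920 and 10295226 in TNFR2+ and between 10483291 and 11492762 in TNFR2- libraries. *Tnfrsf1b* was higher in TNFR2+ Tregs by 0.90 on the log2 scale (SE 0.16, limma adjusted p = 0.00449). It was called in all 8 fits with a library left out and under 7 of the 8 alternatives that kept every library (highest adjusted p = 0.0574). All 9 Treg markers were present and tested, and 4 were called higher in TNFR2+ Tregs and 0 lower. Over all genes tested, 4.52% were called higher and 3.39% lower. The 4 were *Ikzf2* (log2 difference 0.95, limma adjusted p = 0.0145), *Ctla4* (0.89, adjusted p = 0.00120), *Tnfrsf18* (0.88, adjusted p = 0.00234) and *Cd3e* (0.51, adjusted p = 0.00919). Log2 differences were above 0 for 7 of the 9 and below 0 for *Foxp3* and *Il2ra* (-0.34, adjusted p = 0.0860). *Foxp3* itself had 2812 to 3313 normalized counts in TNFR2+ and 3292 to 4033 in TNFR2- libraries (adjusted p = 0.232). The sum of 9 B cell markers ran from 3996 to 6086 in TNFR2+ and from 1799 to 2935 in TNFR2- libraries. Most of it was *Ighm*, which was 2.41-fold higher in TNFR2+ Tregs (limma adjusted p = 7.45e-04). *Cd22* (273 to 350 and 54.7 to 223, adjusted p = 0.0612) and *Ighd* (41.1 to 73.5 and 9.92 to 53.0, adjusted p = 0.162) were not called, and *Cd79a* reached at most 6.10. *Ms4a1* (45.0 to 79.9 and 19.6 to 99.4, adjusted p = 0.808) and *Ebf1* (25.9 to 50.5 and 41.4 to 80.4, adjusted p = 0.592) were not called either. Of the 6 B cell markers tested, 5 had a log2 difference above 0 and 1, *Ebf1*, below. The 9 of 15 myeloid and dendritic markers in the table summed to 229 to 442 and 339 to 655. Of these, 5 were tested and 1 was called lower in TNFR2+ Tregs, against 3.39% of all genes, with a median log2 difference of -0.83. The 8 of 11 CD8 and natural killer markers summed to 148 to 236 and 104 to 170, with *Cd8a* between 0 and 24.2 in all libraries. *Nkg7* from this list was higher in TNFR2+ Tregs (49.2 to 92.3 against 2.03 to 18.4 normalized counts, limma adjusted p = 0.00927). Their part in the integrin values was not tested.

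Of the 10 subunits, 4 were higher in TNFR2+ Tregs (*Itgb8*, *Itgav*, *Itgal* and *Itgb1*), 3 were lower (*Itgb3*, *Itga6* and *Itgb7*) and 3 did not pass the threshold (*Itgae*, *Itga4* and *Itgb2*). Changes ran from 3.04-fold higher for *Itgb8* to 3.43-fold lower for *Itgb3*. A subunit was called at an adjusted p under 0.05 in limma, fitted to all 13990 genes tested as log2(normalized count + 1) and adjusted over all of them. In that fit 7.91% of genes were called, 4.52% higher and 3.39% lower. The values of both populations did not overlap for the 4 higher and the 3 lower subunits, against 8.08% and 7.29% of all genes in these directions. The median size of the log2 change was 0.90 for the 10 subunits and 0.37 for all genes. Because the RNA comes from whole sorted populations, fewer cells that express a subunit and less of its RNA per cell cannot be told apart.

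**Figure D1:**
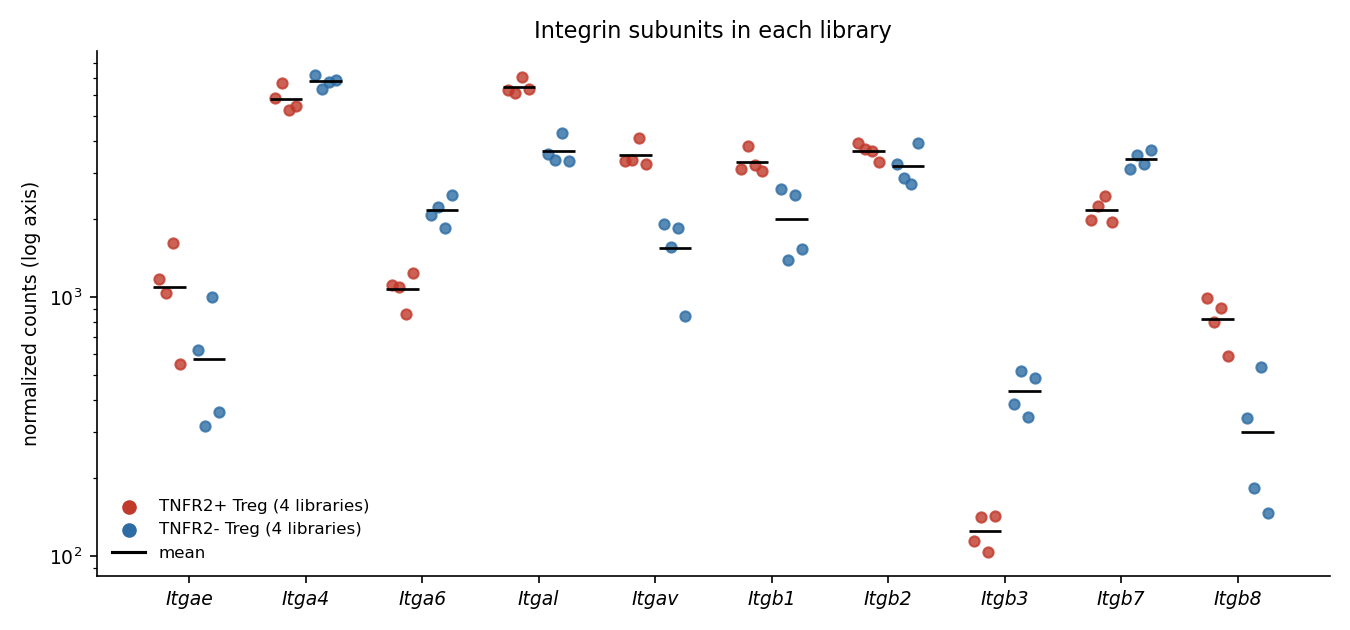
Normalized counts of the 10 integrin subunits (log axis) in each of the 4 TNFR2+ and 4 TNFR2- Treg libraries, with a bar at the mean of each population. Points of both populations do not overlap for *Itga6*, *Itgal*, *Itgav*, *Itgb1*, *Itgb3*, *Itgb7* and *Itgb8*, and overlap for *Itgae*, *Itga4* and *Itgb2*.

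The αv and β8 chains, which form a single receptor, were both higher in TNFR2+ Tregs. *Itgb8* (ENSMUSG00000025321, chr12:119158022-119238802, minus strand, GRCm38) had 987, 801, 903 and 594 normalized counts in TNFR2+ replicates 1 to 4. It had 340, 184, 535 and 147 in TNFR2- replicates 1 to 4. The lowest TNFR2+ library, replicate 4, lay just above the highest TNFR2- library, replicate 3. The means were 821 ± 170 and 302 ± 177 (SD, n = 4), a log2 difference of 1.60 (SE 0.34, 95% interval 0.87 to 2.34, limma adjusted p = 0.0111). *Itgb8* was the most strongly raised subunit, and the chain whose printed tail holds no NPxY motif.

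*Itgav* (ENSMUSG00000027087, chr2:83724397-83806916, plus strand) had 3335, 3384, 4102 and 3273 normalized counts in TNFR2+ replicates 1 to 4 and 1910, 1553, 1848 and 848 in TNFR2- replicates 1 to 4. Every TNFR2+ library was well above every TNFR2- library. TNFR2- replicate 4 was the lowest for *Itgav* as it was for *Itgb8*. The log2 difference was 1.26 (SE 0.22, 95% interval 0.79 to 1.72, limma adjusted p = 0.00339), a 2.39-fold higher level. The minus-strand genes *Gm13684* and *Dnmt3l-ps1* overlap the span of *Itgav*, and a part of their reads in its values was not tested. Without the trend of variance with intensity, the adjusted p was 0.0549 for *Itgav* and 0.0815 for *Itgb8*, past the threshold in neither case.

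β3, like β1 a further αv partner among the 10, went the opposite way to *Itgav* and *Itgb8*, whereas *Itgb1* was higher. *Itgb3* (ENSMUSG00000020689, chr11:104608000-104670476, plus strand) had 114, 141, 104 and 142 normalized counts in TNFR2+ replicates 1 to 4. It had 386, 520, 345 and 486 in TNFR2- replicates 1 to 4. Each TNFR2- library thus held more *Itgb3* RNA than any TNFR2+ library, although the gene was low in both populations. The means were 125 ± 19.4 and 434 ± 82.1 (SD, n = 4), and the log2 change of -1.78 (SE 0.22, limma adjusted p = 5.14e-04) was the largest of the 10. Over all genes tested, 5.68% changed by at least this much.

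β3 also pairs with αIIb in platelets, which can stick to leukocytes. Of 10 platelet and megakaryocyte markers only *Itga2b*, the αIIb gene, was in the table. It had between 12.2 and 221 normalized counts in TNFR2+ and between 31.2 and 178 in TNFR2- libraries, with a log2 difference of -0.18 (adjusted p = 0.924). Its highest library was TNFR2+ replicate 1. The platelet-defining *Pf4*, *Ppbp* and *Gp9* were not in the table, and a part of platelet RNA in the *Itgb3* values was not tested.

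The αL chain of LFA-1 was higher in TNFR2+ Tregs, whereas its β2 partner was not called. *Itgal* (ENSMUSG00000030830, chr7:127296260-127335138, plus strand) had 6282, 6129, 7051 and 6347 normalized counts in TNFR2+ replicates 1 to 4 and 3579, 3372, 4307 and 3350 in TNFR2- replicates 1 to 4. Both populations were tight and far apart, with replicate 3 the highest in each. The log2 difference was 0.83 (SE 0.11, limma adjusted p = 7.33e-04), and *Itgal* was the only one of the 4 higher subunits called under every alternative fit.

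*Itgb2* (ENSMUSG00000000290, chr10:77530252-77565708, plus strand) had 3932, 3722, 3669 and 3319 normalized counts in TNFR2+ replicates 1 to 4 and 3275, 2889, 2733 and 3928 in TNFR2- replicates 1 to 4. TNFR2- replicate 4 reached the level of the highest TNFR2+ library, so the populations overlapped. The log2 difference was 0.20 (95% interval -0.07 to 0.48, adjusted p = 0.373, exact permutation p = 0.171).

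Among the chains of the β1 receptors, *Itgb1* was higher, *Itga6* lower and *Itga4* not called. *Itgb1* (ENSMUSG00000025809, chr8:128685654-128733200, plus strand) had 3129, 3841, 3226 and 3058 normalized counts in TNFR2+ replicates 1 to 4 and 2612, 1391, 2480 and 1538 in TNFR2- replicates 1 to 4. The TNFR2- libraries fell in pairs, with replicates 1 and 3 near the TNFR2+ values and replicates 2 and 4 well below. The log2 difference was 0.77 (SE 0.19, limma adjusted p = 0.0259). This call was lost without TNFR2+ replicate 1 (adjusted p = 0.0545), replicate 2 (0.0858) or replicate 3 (0.0625), without TNFR2- replicate 2 (0.0765) or replicate 4 (0.0709), and without the intensity trend (0.130).

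*Itga6* (ENSMUSG00000027111, chr2:71745616-71858416, plus strand) encodes the α chain of the laminin receptor α6β1. It had 1109, 1092, 858 and 1235 normalized counts in TNFR2+ replicates 1 to 4 and 2080, 2232, 1849 and 2476 in TNFR2- replicates 1 to 4. The highest TNFR2+ library was far below the lowest TNFR2- library. TNFR2+ Tregs held 2.02-fold less *Itga6* RNA, a log2 change of -1.01 (SE 0.15, limma adjusted p = 0.00113), and it was called in every alternative fit.

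*Itga4* (ENSMUSG00000027009, chr2:79255426-79333123, plus strand), the α chain of both α4β1 and α4β7, had 5837, 6704, 5285 and 5483 normalized counts in TNFR2+ replicates 1 to 4. It had 7218, 6328, 6772 and 6894 in TNFR2- replicates 1 to 4. TNFR2+ replicate 2 lay within the TNFR2- range, and the other TNFR2+ libraries lay below it. The log2 difference of -0.23 did not pass the threshold (SE 0.10, 95% interval -0.45 to -0.00479, adjusted p = 0.207, exact permutation p = 0.0571). Its transcript shares 908 bases with the antisense gene *Cerkl*, which had 46.1 to 122 normalized counts in all libraries, and how the counting used strand is not given in the sources used here.

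β7, which pairs with both α4 and αE, was lower in TNFR2+ Tregs. *Itgb7* (ENSMUSG00000001281, chr15:102215995-102231944, minus strand) had 1980, 2245, 2452 and 1955 normalized counts in TNFR2+ replicates 1 to 4 and 3122, 3531, 3259 and 3691 in TNFR2- replicates 1 to 4. The populations were separate, with little spread in either. The log2 change was -0.66 (SE 0.12, limma adjusted p = 0.00402), or 1.58-fold lower, and without the intensity trend the adjusted p was 0.0580.

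*Itgae* (ENSMUSG00000005947, chr11:73090583-73147446, plus strand), the αE chain known as CD103, had 1169, 1040, 1609 and 549 normalized counts in TNFR2+ replicates 1 to 4 and 625, 318, 1003 and 359 in TNFR2- replicates 1 to 4. It was the most variable subunit in TNFR2+ Tregs, where the highest library held 2.93 times the lowest, and this ratio was 3.16 in TNFR2- Tregs. TNFR2+ replicate 4 fell among the TNFR2- values, and TNFR2- replicate 3 came close to TNFR2+ replicate 2. The log2 difference of 0.98 was larger than that of *Itgal* but did not pass the threshold (SE 0.36, 95% interval 0.19 to 1.76, adjusted p = 0.124, exact permutation p = 0.114). It passed when TNFR2+ replicate 4 (adjusted p = 0.0449) or TNFR2- replicate 3 (adjusted p = 0.0271) was left out. The antisense gene *Haspin* lies within *Itgae* and had 22.0 to 90.9 normalized counts.

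**Figure D2:**
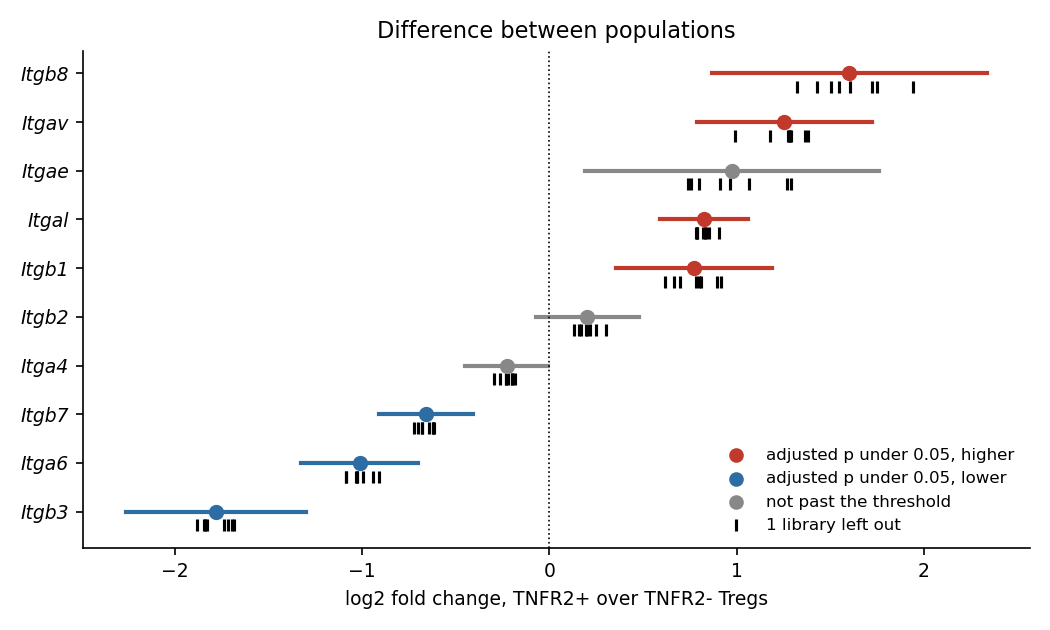
Log2 fold change of each subunit (TNFR2+ over TNFR2- Tregs, dots) with its 95% interval (lines), and the values with each of the 8 libraries left out in turn (ticks). *Itgb8* is highest at 1.60 and *Itgb3* lowest at -1.78, and no subunit changed direction when a library was left out.

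Levels were compared between genes as normalized counts per kilobase of the longest coding transcript. In TNFR2+ Tregs the order was *Itgal* (1236 ± 78.4, SD, n = 4), *Itgb2* (1232 ± 85.6), *Itgb1* (869 ± 93.9), *Itgb7* (804 ± 88.0), *Itga4* (597 ± 64.3), *Itgav* (499 ± 55.0), *Itgae* (284 ± 113), *Itga6* (249 ± 36.5), *Itgb8* (97.8 ± 20.2) and *Itgb3* (21.7 ± 3.36). Neighbours whose libraries overlapped were *Itgal* and *Itgb2*, *Itgb1* and *Itgb7*, *Itga4* and *Itgav*, and *Itgae* and *Itga6*. The remaining neighbours were separate.

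In TNFR2- Tregs *Itgb7* led with 1268 ± 95.9 normalized counts per kilobase, ahead of *Itgb2* (1080 ± 179), *Itgal* (699 ± 85.9), *Itga4* (697 ± 37.7), *Itgb1* (526 ± 165), *Itga6* (501 ± 61.1), *Itgav* (218 ± 69.0), *Itgae* (150 ± 82.0), *Itgb3* (75.1 ± 14.2) and *Itgb8* (35.9 ± 21.0). Only *Itgb2* and *Itgal*, and *Itga6* and *Itgav*, were neighbours without overlap. *Itgb7* was thus 4th in TNFR2+ Tregs and 1st in TNFR2- Tregs, and the lowest pair, *Itgb8* and *Itgb3*, stood in opposite orders. Dividing by the length of all annotated exons instead put *Itgb2* above *Itgal* in TNFR2+ Tregs and *Itgb1* above *Itga4* in TNFR2- Tregs.

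**Figure D3:**
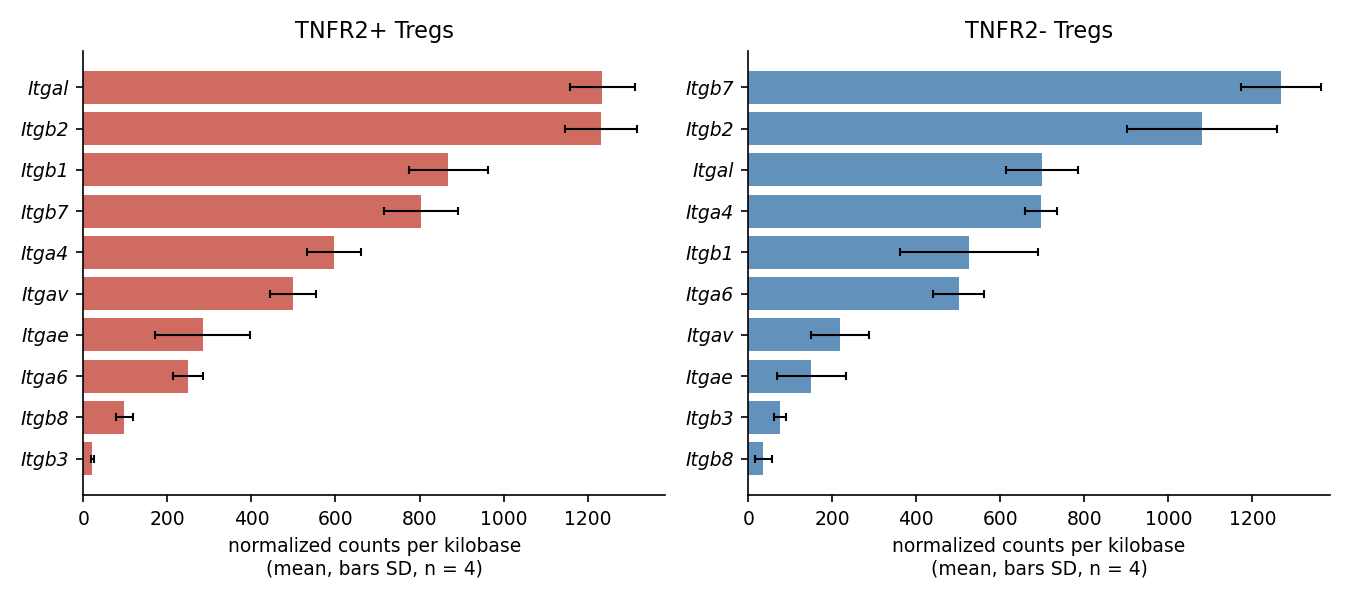
Mean normalized counts per kilobase of the longest coding transcript for each subunit in TNFR2+ Tregs (left) and TNFR2- Tregs (right), sorted within each population, with SD bars (n = 4). *Itgal* and *Itgb2* lead at 1236 and 1232 in TNFR2+ Tregs, and *Itgb7* leads at 1268 in TNFR2- Tregs.

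Since subunits act in pairs, log2 ratios of levels per kilobase were taken within each library, for 10 pairs and with no test. Ratios of RNA do not give the amounts of assembled receptor. *Itgav* over *Itgb3* lay between 4.24 and 5.02 in TNFR2+ libraries and between 0.52 and 2.13 in TNFR2- libraries. *Itgb8* over *Itgb3* lay between 1.52 and 2.58 and between -2.26 and 0.09, so β8 exceeded β3 in every TNFR2+ library and in 1 TNFR2- library, or in 0 TNFR2- libraries by the length of all annotated exons.

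*Itgb1* over *Itgb7*, the 2 β chains that take α4, lay between -0.11 and 0.27 in TNFR2+ libraries and between -1.85 and -0.77 in TNFR2- libraries. *Itga4* over *Itgb1* lay between -0.64 and -0.46 and between 0.09 and 0.83, which put α4 below β1 in every TNFR2+ library and above it in every TNFR2- library. By the length of all annotated exons, α4 was above β1 in 2 of the 4 TNFR2- libraries. *Itga6* over *Itgb1* was also separate, at -2.09 to -1.48 and -0.60 to 0.51.

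*Itgal* over *Itgb2* lay between -0.14 and 0.13 in TNFR2+ libraries and between -1.04 and -0.16 in TNFR2- libraries, and the ranges missed each other narrowly. By the length of all annotated exons, a length tried for the ratios after their values were seen, these ranges were -0.43 to -0.16 and -1.34 to -0.45. Ranges overlapped for *Itgav* over *Itgb8* (2.01 to 2.71 and 2.04 to 3.33), *Itgav* over *Itgb1*, *Itgae* over *Itgb7* and *Itga4* over *Itgb7*. β8 was thus the rarer chain of αvβ8 RNA in all 8 libraries, while both chains were called higher in TNFR2+ Tregs.

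**Figure D4:**
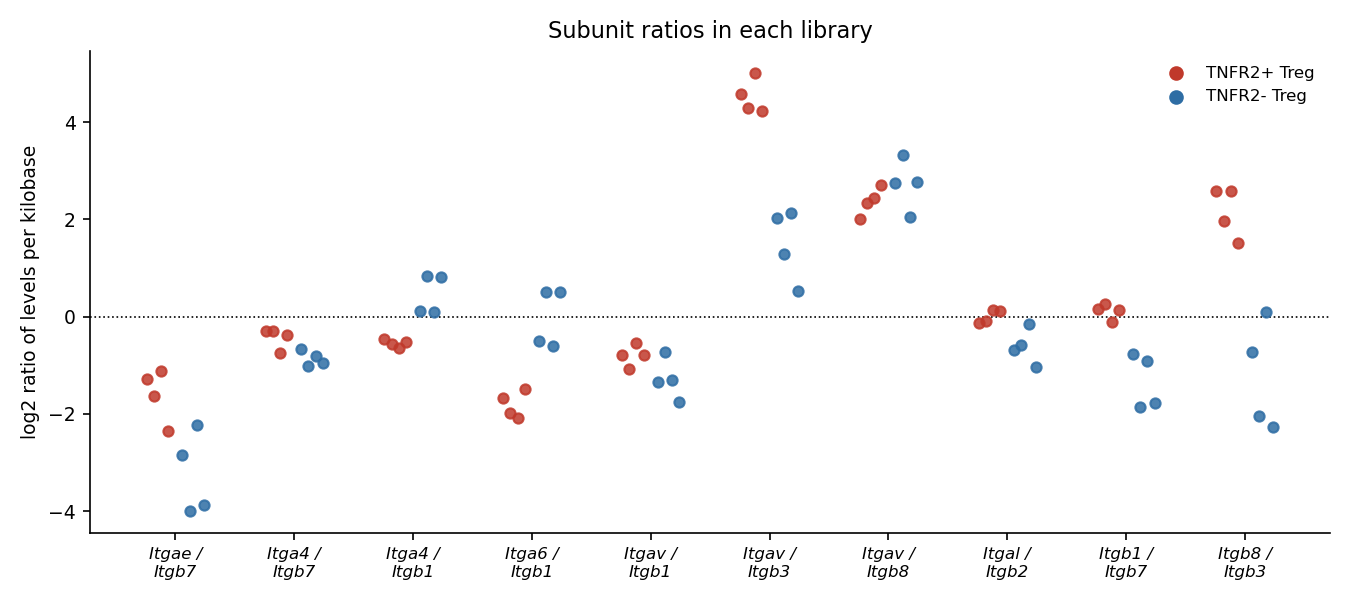
Log2 ratio of levels per kilobase for 10 subunit pairs in each TNFR2+ and TNFR2- Treg library, with a dotted line where both subunits are equal. *Itgav* over *Itgb3* lies between 4.24 and 5.02 in TNFR2+ libraries and between 0.52 and 2.13 in TNFR2- libraries, and *Itgav* over *Itgb8* overlaps.

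Within a population the libraries stood in a similar order for many subunits. For 8 of the 10 subunits, among them all 7 that were called, the pair of TNFR2- libraries nearest the TNFR2+ mean was replicates 1 and 3, a pair chosen after the values were seen. The exceptions were *Itga4* and *Itgb2*. On the first principal component of all genes tested, which took 29.4% of the variance and separated the populations, the same libraries were nearest the TNFR2+ libraries, at 34.0 and 26.7 against 76.0 and 60.9 for replicates 2 and 4. *Tnfrsf1b* did not follow this order, with 1266, 1563, 1177 and 1277 normalized counts in TNFR2- replicates 1 to 4.

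In TNFR2+ Tregs, replicate 4 was nearest the TNFR2- mean for 7 of the 10 subunits, 5 of them called, and it was also nearest on the first principal component (-27.6, the others -71.1 to -48.4). TNFR2- replicate 3 stood apart on the second component, at 91.3 where the others lay between -39.1 and 18.0. Without it, the log2 changes of the 7 called subunits kept their direction and their calls, and *Itgae* was called as an additional higher subunit.

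Further integrin subunits gave 0 calls in limma, and over all genes 7.91% were called. Of 17 such genes 13 were in the table and 9 were tested, with log2 differences from -1.20 to 1.87 and a median of -0.18. Only 1 had an unadjusted p under 0.05, and the share of all genes under that cut is not given here. This was *Itgb5* (log2 difference 1.87, limma adjusted p = 0.184). *Itgb5* had 186 normalized counts in TNFR2+ replicate 1, 17.3 to 45.8 in the other TNFR2+ libraries and 3.11 to 35.3 in TNFR2- libraries. The 13 genes in the table are summed next. They summed to 377 to 650 normalized counts in TNFR2+ and 252 to 529 in TNFR2- libraries, against 25955 to 29258 and 22317 to 25148 for the 10 subunits described.

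Ligands and counter-receptors for these integrins included 1 call. Of 27 genes 20 were in the table, 11 were tested and 1 was called, a share near the 7.91% of all genes, with a median of 0.24. The higher gene was *Lamc1*, the γ1 chain of laminin, a ligand of α6β1, with 1231 ± 254 and 415 ± 230 normalized counts (log2 change 1.70, SE 0.31, limma adjusted p = 0.00493), a call lost without the intensity trend (adjusted p = 0.0594). *Lamc1* and *Itga6* thus changed in opposite directions. Of the other laminin chains listed, *Lamb1* and *Lamb2* were absent from the deposited values. *Lama1*, *Lama2* and *Lama4* were too low to be tested, and *Lama5* was not called (limma adjusted p = 0.513), so *Lamc1* RNA alone does not show that laminin is made. The LFA-1 ligands *Icam1* (0.24, adjusted p = 0.512) and *Icam2* (-0.79, adjusted p = 0.168) did not pass, and *Cdh1*, encoding E-cadherin, was too low to be tested (12.7 ± 12.9 and 2.79 ± 3.12 normalized counts).

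Partners of αv integrins in the latent TGF-β complex included 1 call. Of 9 genes all were in the table and 7 were tested, with a median of 0.39, and over all genes 7.91% were called. *Tgfb1*, which encodes the cytokine and the RGD-bearing latency peptide, had 1963, 2145, 1849 and 1674 normalized counts in TNFR2+ replicates 1 to 4 and 1233, 1334, 1279 and 1386 in TNFR2- replicates 1 to 4. The populations were separate, with a log2 difference of 0.54 (SE 0.12, limma adjusted p = 0.0157) that fell short without TNFR2+ replicate 2 (adjusted p = 0.0658) and without the intensity trend (0.0854). *Lrrc32*, encoding GARP, the protein that anchors latent TGF-β on Tregs, had a log2 difference of 0.49 and an adjusted p of 0.0511, and it passed under 4 of the 8 alternatives that kept every library (lowest adjusted p = 0.0314) and in 1 of 8 fits with a library left out.

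Genes that set integrin activity from inside the cell, activators and inhibitors alike, gave 7 lower calls and 1 higher call in TNFR2+ Tregs. Of 25 genes 24 were in the table and 23 were tested, and over all genes 3.39% were called lower and 4.52% higher. The median of the list was -0.38, against -0.01 for all genes. *Rasgrp2*, the exchange factor CalDAG-GEFI that activates the small GTPase Rap1, had 860, 865, 627 and 1193 normalized counts in TNFR2+ replicates 1 to 4 and 2199, 3072, 2035 and 2595 in TNFR2- replicates 1 to 4. Each TNFR2- library was above each TNFR2+ library, with a log2 change of -1.50 (SE 0.19, limma adjusted p = 5.62e-04).

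*Apbb1ip*, encoding the adaptor RIAM that links Rap1 to talin, was lower by a log2 change of -0.78 (adjusted p = 0.00120). The kinase *Prkd2* (-0.89), the cytohesin *Cyth1* (-0.74), the Rap GTPase-activating protein *Sipa1l1* (-0.71) and the cytohesin-binding *Cytip* (-0.54) were lower as well, with adjusted p from 0.00372 to 0.0217. The last 2 are known as brakes on Rap1 or on cytohesin, so the lower genes include both activators and inhibitors. *Rap1a*, a Rap1 gene, was the higher one (0.67, adjusted p = 0.0295), and it was called in 3 of 8 fits with a library left out. *Rap1b*, the more abundant Rap1 gene, leaned the other way and was not called (-0.41, adjusted p = 0.0648). *Rap1b* had 2514 ± 109 and 3377 ± 512 normalized counts, against 897 ± 129 and 566 ± 94.7 for *Rap1a*. The 7 lower calls became 2 without the intensity trend and 5 to 8 with a library left out.

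The genes of talin and kindlin-3, which bind β tails directly, were not called. *Tln1*, encoding talin, had 8025 to 9352 normalized counts in TNFR2+ and 7281 to 9899 in TNFR2- libraries (log2 difference -0.04, adjusted p = 0.871), and its sign depended on the scaling. *Fermt3*, encoding kindlin-3, had a log2 difference of 0.20 (adjusted p = 0.414). Of 10 integrin inhibitors and tail-binding proteins, all tested, 0 passed in limma, against 7.91% of all genes, with a median of -0.00. An unadjusted p under 0.05 was found for 2 of them, and the share of all genes under that cut is not given here.

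Of 30 genes of outside-in signalling and the adhesion complex, 27 were tested and 2 were called, a share near the 7.91% of all genes. *Lpxn*, encoding leupaxin, was higher (0.67, adjusted p = 0.0321), a call that held in 1 of 8 fits with a library left out. *Actn1*, encoding α-actinin that joins integrins to actin, was lower (-1.43, SE 0.22, adjusted p = 0.00147), and this call held in all 8.

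Several membrane proteins that associate with integrins were higher in TNFR2+ Tregs. Of 12 genes 11 were tested, and 4 were called, all 4 higher, against 4.52% of all genes called higher, with a median of 0.53. *Cd81*, a tetraspanin, had 769, 536, 867 and 548 normalized counts in TNFR2+ replicates 1 to 4 and 282, 250, 327 and 176 in TNFR2- replicates 1 to 4, a log2 difference of 1.39 (SE 0.23, limma adjusted p = 0.00274). The tetraspanin *Cd82* (1.25, adjusted p = 0.00123) and the hyaluronan receptor *Cd44* (0.95, adjusted p = 0.00266) were also higher in every TNFR2+ library than in any TNFR2- library. *Slc3a2*, encoding CD98 that binds β1 and β3 tails, was higher by 0.53 (adjusted p = 0.0290), a call that held in 3 of 8 fits with a library left out.

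**Figure D5:**
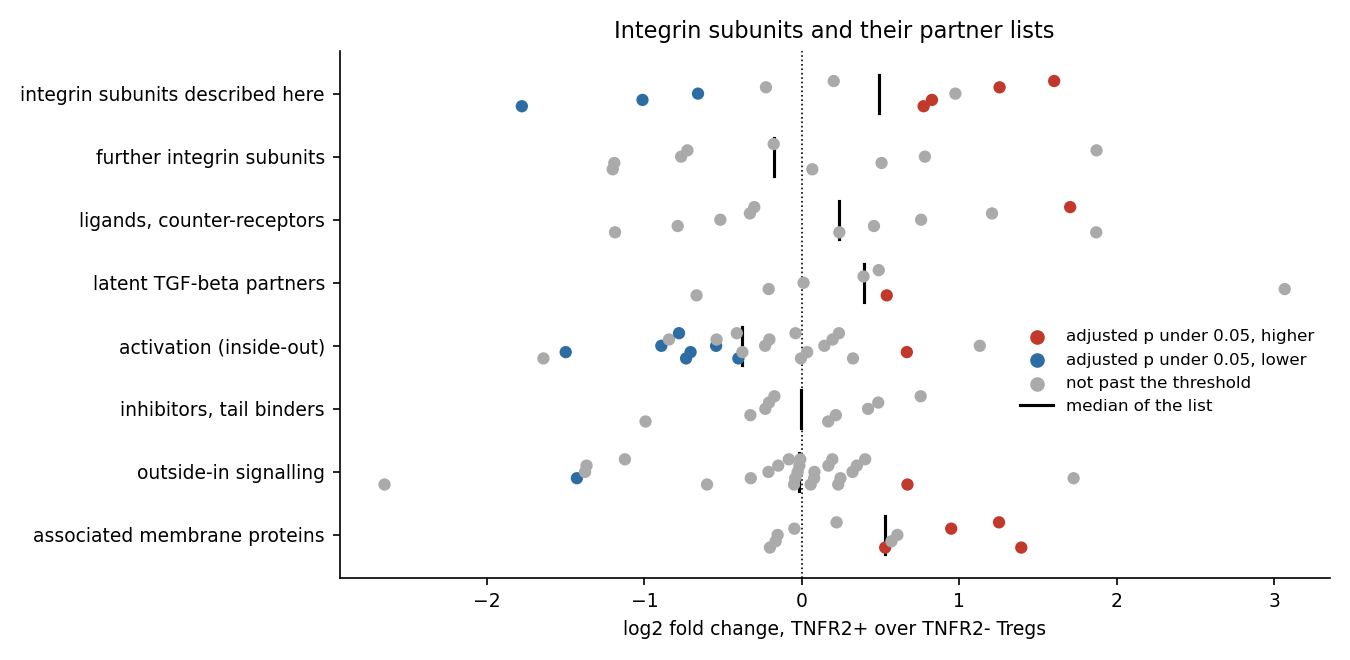
Log2 fold change (TNFR2+ over TNFR2- Tregs) of the tested genes in each list of integrin partners, 1 dot a gene, colored where the adjusted p was under 0.05, with a black bar at the median of the list. The list of inside-out activation holds 7 lower genes and 1 higher gene around a median of -0.38, and the membrane proteins hold 4 higher genes around 0.53.

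Promoters were available for 5 of the 10 subunits in the RefSeq table on GRCm38.p6, from 250 bases before to 50 after the start. Those of the paired *Itgav* (chr2:83724147-83724446, plus strand) and *Itgb8* (chr12:119238227-119238526, minus strand) are shown beside that of *Itgb7* (chr15:102231886-102232185, minus strand), which changed in the opposite direction. They are written 5′ to 3′ along the gene, with matches of the searched motifs in capitals.
Itgav: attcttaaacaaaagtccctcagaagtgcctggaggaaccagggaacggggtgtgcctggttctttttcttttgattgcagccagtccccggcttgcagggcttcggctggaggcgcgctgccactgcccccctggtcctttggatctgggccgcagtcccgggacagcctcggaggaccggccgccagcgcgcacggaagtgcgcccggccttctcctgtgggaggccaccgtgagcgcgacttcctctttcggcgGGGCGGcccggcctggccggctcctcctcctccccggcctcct
Itgb8: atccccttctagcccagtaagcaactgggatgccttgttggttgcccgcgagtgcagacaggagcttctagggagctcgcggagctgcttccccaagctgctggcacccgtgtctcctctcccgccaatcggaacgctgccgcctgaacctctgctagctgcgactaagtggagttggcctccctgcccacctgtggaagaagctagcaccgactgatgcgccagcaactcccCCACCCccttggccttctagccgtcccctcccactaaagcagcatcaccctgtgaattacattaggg
Itgb7: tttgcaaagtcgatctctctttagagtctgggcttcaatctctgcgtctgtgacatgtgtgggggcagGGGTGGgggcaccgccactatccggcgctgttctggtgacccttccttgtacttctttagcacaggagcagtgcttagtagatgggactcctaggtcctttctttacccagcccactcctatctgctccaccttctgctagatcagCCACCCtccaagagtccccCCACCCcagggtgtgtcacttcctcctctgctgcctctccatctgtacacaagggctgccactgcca
The motifs described, searched on both strands, were TGANTCA (AP-1), GGGCGG (GC box), TGTGGT (Runx) and CCACCC (the Klf type), which stand in 7.81%, 35.7%, 16.8% and 31.5% of all 32851 promoters. *Itgav* held 1 GGGCGG, centred 10 bases after the start. *Itgb8* held 1 CCACCC 14 bases before the start, counted to its centre. *Itgb7* held 3, at 179, 33 and 14 bases before the start, the first on the opposite strand. The *Itgb8* window lies wholly inside the GENCODE gene, whose 5′ end is at 119238802. Its RefSeq start is thus downstream of that end, and the position of its motif holds for the RefSeq start only. No match of TGANTCA was present in the 3 windows.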

How the data were processed

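The study prepared stranded total RNA libraries from sorted TNFR2+ and TNFR2- Tregs. Per the submitters' processing notes, FastQC 0.11.8, Trim Galore, Salmon 1.3.0 and DESeq2 1.28 in R 4.0 were used with GRCm38. The deposited values are normalized signal per gene, gene counts estimated by the authors with salmon and divided by size factors, so they are neither whole nor on a log scale. Low values of 2806 single-transcript genes lay on whole multiples of a step, within 0.1, in 69.7% to 96.5% of cases, which gave an estimated depth of 9100000 to 12112000 reads per library. Other genes did not return whole reads, so no count model was fitted.

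Identifiers were matched to GENCODE (20008 of 20172). Taking log2(value + 1) understates the changes of low genes. The 13990 genes averaging 10 or more over the libraries entered limma 3.58.1 in R 4.3.3 (intensity trend, two-sided, Benjamini-Hochberg, threshold 0.05). All 8 libraries entered, without covariates. Exact permutation p-values of single genes are two-sided, over 70 relabellings of the libraries, and cannot go below 0.0286. The fit was tested on simulated data. Alternatives were other pseudocounts (0.5, 5), no filter or a mean of 50, no intensity trend, equal sums over nuclear protein-coding genes, quantile normalization, a replicate block and leaving out each library. Similar transcripts were searched with blastn 2.17.0 (at least 95% identity over 200 bases). *Itga6* shares 326 bases with *Gm29397*, which was at 0 in all but 1 library (10.7). No 2 libraries had identical values.

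The subunits and the partner and marker lists were chosen with earlier results of these data known. All 10 subunits are named, with up to 6 called genes a direction in each list and *Tln1*, *Fermt3*, *Lrrc32*, *Tgfb1*, *Icam1*, *Icam2* and *Cdh1* whatever their result. *Rap1b*, *Itgb5* and the laminin chains other than *Lamc1* were added after their values were seen.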

Additional observations from a re-analysis of the deposited data

Results flagged for a closer look

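*Itgav* in TNFR2+ Treg replicate 3 had 4102 normalized counts, apart from the other 3 TNFR2+ libraries (3273 to 3384), and its gap to the nearest of them took 0.852 of the range of the 4, above the limit of Dixon's test at the 95% level. It was the only library that stood out in this way among 20 groups of 4 (10 subunits in 2 populations), and chance gives about 1 in 20. Without this library *Itgav* was still higher in TNFR2+ Tregs.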

How the results depend on the processing

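All 10 subunits kept their direction under the 8 alternatives that kept every library and the 8 that left 1 out. Without the intensity trend, 1 subunit was called higher instead of 4 and 465 genes were called in all instead of 1107. With a library left out, 636 to 1324 genes were called, and 3 to 5 subunits higher and 3 lower. The labels do not say whether same-numbered libraries share a source. Their deviations from the population means, over all genes tested, had correlations of -0.0386 to 0.00054. Pairs with unlike numbers had -0.0989 to 0.0772, and such values cannot settle whether the samples were paired. With a replicate block 5 subunits were higher, *Itgae* included (adjusted p = 0.0139), 3 were lower and 1183 genes were called. The log2 difference of *Tln1* was 0.0283 with equal sums, 0.18 with quantile normalization and -0.14 to 0.0118 with a library left out. Equal sums moved the median of all genes to 0.06. The causes were not tested. With 4 libraries a population, the exact test cannot go below 0.0286.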
